A study of Mus musculus with 52 samples.

Results

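The genes described here form a short stretch of mouse chromosome 10 around Cdk4, the gene of cyclin-dependent kinase 4. Its 10 members were Cdk4, Tspan31, March9, Mettl1, Tsfm, Avil, Ctdsp2, Cyp27b1, Os9 and Agap2, out of 20730 genes in the count table. They were chosen from the raw counts of each library, because their RNA was raised together in the libraries of tumour numbers 408 and 1835 and moved by smaller amounts in other tumours. The values of those libraries, and the smaller shifts, are therefore given as descriptions without a test. All 10 members passed the filter on low counts.

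RNA of flash-frozen primary osteosarcomas of mice, malignant tumours of bone, was sequenced in bulk as 52 libraries in 3 genotype groups. The p53fl/fl group carried conditional (floxed) alleles of Trp53, the gene of the tumour suppressor p53, on both chromosomes. The p53R172H/fl and p53R245W/fl groups each paired 1 such conditional allele with 1 allele that encodes the missense change in the name. All groups thus shared at least 1 conditional allele, and no group had a pair of unaltered Trp53 alleles. The labels give neither the promoter that drives recombination nor the ages of the mice, and name no treatment. Only RNA was measured, and the number of DNA copies of the locus was not analysed here.

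CDK4 binds D-type cyclins and phosphorylates the retinoblastoma protein, which releases E2F transcription factors and lets a cell enter S phase. The inhibitors of the INK4 family, such as the product of Cdkn2a, block it. The human region that corresponds to this stretch lies on the long arm of chromosome 12, and its amplification together with MDM2 is a known event in several human sarcomas, osteosarcoma among them.

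Tumour numbers were not taken to stand for independent tumours throughout. Column names placed the libraries in 3 sets: set A (16 libraries, 8 p53fl/fl and 8 p53R172H/fl), set B (18 libraries, 6 of each genotype) and set C (18 libraries, of which 2 were p53fl/fl, 5 p53R172H/fl and 11 p53R245W/fl). Each library of set B matched exactly 1 library outside that set, always of the same genotype. Over 13550 genes, after set and genotype means were removed, the Spearman correlation of these pairs was 0.641 to 0.93, and the next best correlation of any set B library was at most 0.517. The labels do not say that matched libraries come from 1 tumour. Library 408 (set B) and library 1835 (set C), both p53R245W/fl, were such a pair, with a correlation of 0.86. Matched libraries were therefore counted once, as 1 unit, which left 34 units: 10 p53fl/fl, 13 p53R172H/fl and 11 p53R245W/fl. The raised expression that chose the members was thus seen in 2 libraries of 1 unit. Total counts ran from 21596798 to 67223388 per library. Trp53, the check of the genotype labels, ranged from 9.77 to 19.5 CPM (counts per 1000000 mapped counts) over the p53fl/fl units, from 26.8 to 48.7 over the p53R172H/fl units and from 22.2 to 55.2 over the p53R245W/fl units, so the p53fl/fl units did not overlap the others.

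The members lie on GRCm38 between positions 126978717 and 127121131 of chromosome 10. In order of position they are Ctdsp2, Avil, Tsfm, Mettl1, Cyp27b1, March9, Cdk4, Tspan31, Agap2 and Os9. Cdk4 itself (ENSMUSG00000006728) runs from 127063534 to 127067920 on the forward strand, and Tspan31 starts beyond it and runs from 127070264 down to 127067280 on the reverse strand. Their 3′ ends share 641 bases. Tsfm and Avil lie on opposite strands and share 9423 bases. Which strand setting the counting used was not stated, so reads in these shared stretches cannot be assigned to either gene with certainty.

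RefSeq promoters of build GRCm38.p6, 250 bases before to 50 bases after the start of transcription, were matched for all 10 members. The members moved together in 1 unit, and the promoters of 4 of them are shown because the members differed in how they followed Cdk4 elsewhere. Across the other tumours Tsfm followed Cdk4 most closely of the members and Mettl1 next, while Agap2 did not. Capitals mark CACGTG, the E-box that MYC and related factors bind, which reads the same on both strands. The windows are chr10:127063285-127063584 for Cdk4, chr10:127041682-127041981 for Mettl1 and chr10:127078657-127078956 for Agap2, all on the forward strand, and chr10:127030765-127031064 on the reverse strand for Tsfm.
Cdk4: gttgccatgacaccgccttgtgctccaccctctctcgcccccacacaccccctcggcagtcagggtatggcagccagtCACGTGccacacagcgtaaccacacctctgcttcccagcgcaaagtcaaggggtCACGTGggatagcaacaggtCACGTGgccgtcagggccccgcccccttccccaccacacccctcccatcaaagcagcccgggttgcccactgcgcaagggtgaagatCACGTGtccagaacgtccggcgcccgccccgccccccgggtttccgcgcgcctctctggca
Tsfm: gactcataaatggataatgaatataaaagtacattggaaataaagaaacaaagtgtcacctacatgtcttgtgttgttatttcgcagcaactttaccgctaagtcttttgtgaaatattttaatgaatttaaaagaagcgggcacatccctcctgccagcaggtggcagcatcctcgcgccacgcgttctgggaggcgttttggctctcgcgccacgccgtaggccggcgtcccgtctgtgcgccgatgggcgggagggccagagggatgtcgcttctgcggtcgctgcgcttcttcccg
Mettl1: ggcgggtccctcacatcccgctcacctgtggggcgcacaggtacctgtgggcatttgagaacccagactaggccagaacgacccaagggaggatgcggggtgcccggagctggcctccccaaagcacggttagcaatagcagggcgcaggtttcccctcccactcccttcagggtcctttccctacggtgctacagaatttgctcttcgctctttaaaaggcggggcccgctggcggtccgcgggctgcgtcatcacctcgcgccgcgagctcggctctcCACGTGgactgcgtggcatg
Agap2: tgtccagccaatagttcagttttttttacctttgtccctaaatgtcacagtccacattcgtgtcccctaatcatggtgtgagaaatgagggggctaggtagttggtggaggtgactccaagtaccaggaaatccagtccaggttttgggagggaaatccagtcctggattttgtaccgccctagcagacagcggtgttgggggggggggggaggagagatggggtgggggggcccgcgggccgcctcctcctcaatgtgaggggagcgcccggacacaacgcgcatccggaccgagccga
The Cdk4 promoter held 4 copies of CACGTG, a number reached by 8 of 32817 mouse promoters of the same length (0.0244%). The Mettl1 promoter held 1 copy, just after the start of transcription, and the promoters of the other 8 members, Tsfm and Agap2 included, held 0. At least 1 copy was present in 7.15% of all promoters. GGGCGG, the letters of the GC box, searched on both strands, was present in 35.6% of all promoters and occurred 3 times in that of Cdk4. Searched in the same way, TATAAA was found in the Tsfm promoter alone among the members, against 13.6% of all promoters. TTTCCCGC, an E2F-type sequence, was in none of the members' promoters and in 1.07% of all. These are matches of letters only.

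Cdk4 RNA stood at 4737 CPM in library 408 (177651 counts) and at 8684 CPM in library 1835 (487091 counts). The other 33 units ranged from 76.7 to 322 CPM, with a median of 143. The 2 libraries were thus 33.1-fold and 60.6-fold above that median, and even the highest other library, 1575, reached 349 CPM. Cdk4 alone took 0.479% of all counts of library 408 and 0.929% of those of library 1835, against 0.00746% to 0.0367% in the other 50 libraries. In the p53fl/fl units the lowest, median and highest Cdk4 levels were 76.7, 124 and 258 CPM. In the p53R172H/fl units they were 123, 146 and 262 CPM. In the p53R245W/fl units without 408/1835 they were 99.4, 161 and 322 CPM. These ranges overlapped, and the lowest level of Cdk4 was in p53fl/fl unit 1522.

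**Figure D1:**
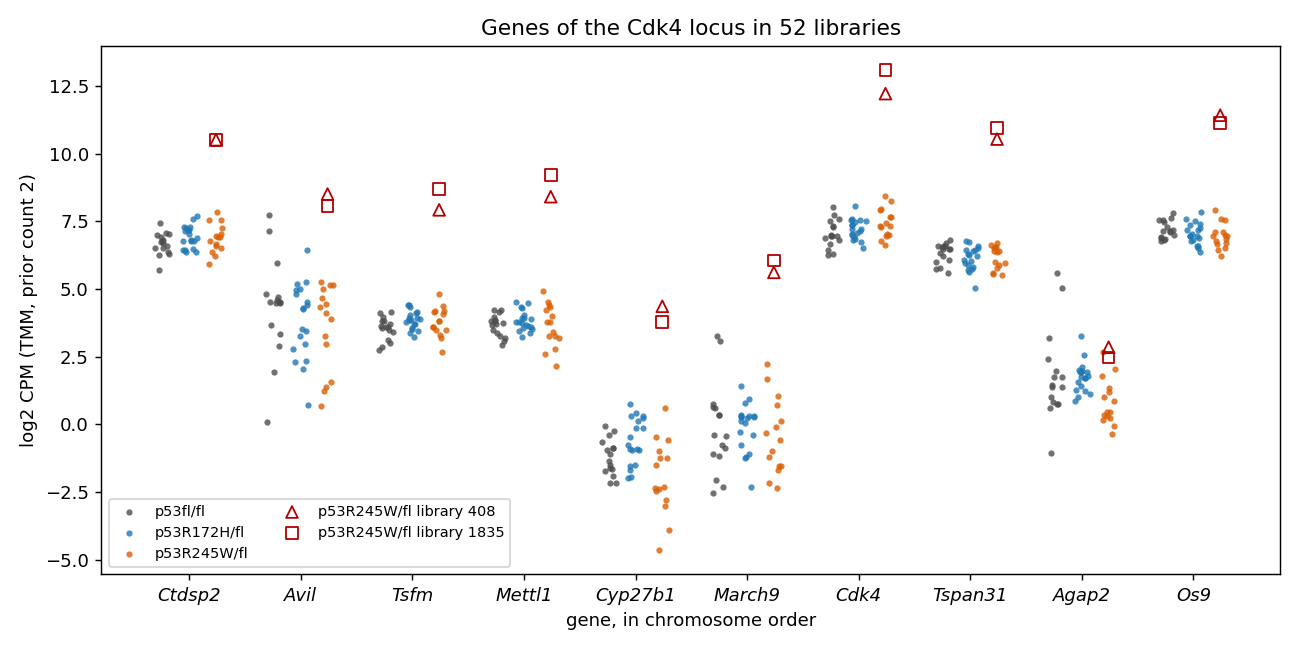
Level of each of the 10 members (horizontal axis, in chromosome order) as log2 CPM with a prior count of 2 (vertical axis), with 1 point per library coloured by genotype, library 408 as a triangle and library 1835 as a square. Cdk4 corresponds to 4737 and 8684 CPM in the marked libraries and at no more than 349 CPM in the other 50, while Agap2, at 7.17 and 5.53 CPM, lies inside the range of the other libraries.

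The other cell-surface and ubiquitin genes next to Cdk4 followed it. Tspan31 encodes a tetraspanin, a membrane protein that organises others at the cell surface, and had 1482 CPM in library 408 and 1958 CPM in library 1835. Its range over the other units was 46.5 to 111 CPM, so the rise was 19.0-fold and 25.1-fold over their median of 78.1. March9, a membrane-bound ubiquitin ligase, was at 49.0 and 66.2 CPM against a median of 0.901 CPM. That is 54.4-fold and 73.5-fold, the largest rise of any member in both libraries. The highest other unit for March9 was p53fl/fl unit 475/562, at 9.12 CPM.

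The RNA-modifying and mitochondrial genes were raised as well. Mettl1, the enzyme that adds methylguanosine to transfer RNAs, had 339 and 592 CPM against a median of 13.3 and a highest other value of 26.3 CPM. Tsfm, an elongation factor of mitochondrial translation, had 242 and 414 CPM against a median of 14.2 and a highest other value of 24.3 CPM. In both genes the highest other unit was p53R245W/fl unit 431/1575, which also held the highest other level of Cdk4. For Cdk4, Tspan31, March9, Mettl1 and Tsfm, library 1835 was above library 408.

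For the other 5 members library 408 was above library 1835. Ctdsp2, a small phosphatase of the C-terminal domain of RNA polymerase II and the host gene of Mir26a-2, had 1457 and 1444 CPM against a median of 110 and a highest other value of 212 CPM. Os9, a lectin that sends misfolded glycoproteins from the endoplasmic reticulum to degradation, had 2726 and 2244 CPM against a median of 129 and a highest other value of 201 CPM. Avil, which encodes the actin-binding protein advillin, had 363 and 269 CPM against a median of 20.7 CPM. Avil also varied widely among the other units, from 1.01 CPM to 184 CPM in p53fl/fl unit 459/4183. Cyp27b1, the enzyme that makes active vitamin D, had 20.5 and 13.6 CPM. It was scarce elsewhere, at a median of 0.472 CPM and at most 1.69 CPM, and 0 counts in p53R245W/fl unit 1818.

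Agap2, a GTPase-activating protein for Arf that also binds phosphoinositide 3-kinase, was the exception. It lay between raised neighbours but had 7.17 CPM in library 408 and 5.53 CPM in library 1835. Its median over the other units was 2.63 CPM, so the difference was 2.73-fold and 2.10-fold. In 6 other libraries Agap2 was above the lower of these values, and p53fl/fl unit 475/562 reached 41.8 CPM. On the log2 scale, as deviation from the median of the 34 units, Agap2 stood at 1.38 and 1.004, while the other 9 members stood between 3.65 and 6.15.

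Counted over the list, 9 of 10 members had both libraries above all 50 others, where 4.33% of the 19726 tested genes did. At least 1 log2 unit was reached in both libraries by 10 of 10 members (11.1% of tested genes) and at least 3 by 9 of 10 (2.86%). These shares describe how the members were chosen. The difference of 3 log2 units was reached by 564 genes in all, so these libraries also stood apart in many genes outside the locus.

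Levels per kilobase of exon put the members in another order than the sizes of the rise. Over the other 33 units the medians were 49.1 CPM per kilobase for Os9, 44.1 for Cdk4, 35.6 for Tspan31, 19.9 for Ctdsp2, 6.08 for Avil, 4.89 for Tsfm and 4.59 for Mettl1. Agap2 (0.443), March9 (0.297) and Cyp27b1 (0.184) were scarce on the same scale. In library 408 and library 1835 the level of Cdk4 was 1458 and 2673 CPM per kilobase. Both strongly expressed and scarce members thus belonged to the raised group.

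The raised stretch extended beyond the members on both sides. Among genes with a median of at least 1 CPM, an unbroken run of 34 genes was at least 1 log2 unit above the median in both libraries. It began with Lrig3 at position 125966168 and ended with Naca at position 128048637, a span of 2.08 Mb. The run held 8 members and 26 other genes. Its span also held 11 tested genes below the 1 CPM limit, March9 and Cyp27b1 among them. Of these 11, 9 were at least 1 log2 unit above the median in both libraries. Gpr182 (-0.19 and -1.07) and Sdr9c7 (-0.66 and -0.86) were not raised. Median deviations over the 34 genes were 4.45 in library 408 and 4.33 in library 1835. The 8 members, at 4.16 and 4.35, were close to the 26 others, at 4.67 and 4.33.

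**Figure D2:**
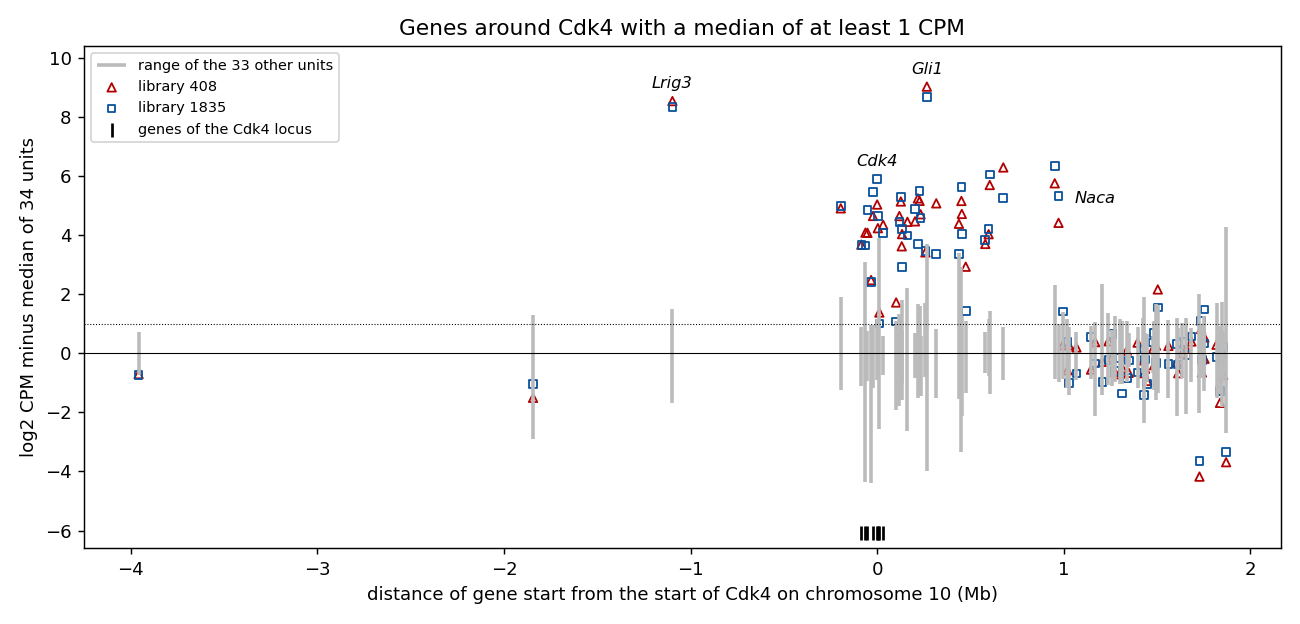
Log2 deviation from the median of the 34 units (vertical axis) for genes around the locus, against distance from the start of Cdk4 in Mb, with triangles for library 408, squares for library 1835, grey bars for the range of the 33 other units, a dotted line at 1 and ticks below for the members. The raised run begins at Lrig3 and ends at Naca, Gli1 reaches 9.02 and 8.67, and Agap2 is the lowest of the run at 1.38 and 1.004.

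Cdk4 was not the most raised gene of the run. Gli1, a transcription factor of Hedgehog signalling, stood at 9.02 and 8.67 log2 units, with 3471 and 2723 CPM against a median of 6.20 CPM over the other units. Lrig3, at the left edge, stood at 8.53 and 8.33. Ddit3, a stress-induced transcription factor, stood at 5.16 and 5.50. Besides Agap2, B4galnt1, a ganglioside synthase, was the least raised, at 1.72 and 1.08. In 31 of the 34 genes both libraries were above every other unit. The 3 without this were Agap2, B4galnt1 and Stac3, the last named after its values were seen.

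The left edge fell between neighbouring genes in both libraries, and the right edge differed between them by 1 gene. Slc16a7, the gene before Lrig3, lay at -1.51 and -1.03, and beyond it Usp15 (-0.70 and -0.73) and Mon2 (-0.79 and -0.74) were below the median too. Atp23, between Lrig3 and the members, stood at 4.90 and 4.98. On the right of the members, B4galnt1 was followed by Arhgef25 (4.64 and 4.45), Dtx3 (5.14 and 5.29), F420014N23Rik (3.62 and 2.92) and Pip4k2c (4.03 and 4.21). At the right edge Naca stood at 4.41 and 5.31. Just outside it, Ptges3 stood at 0.27 in library 408 but 1.42 in library 1835, and the next gene, Atp5b, at -0.58 and 0.38. The run of library 1835 alone thus held 35 genes. Under median-of-ratios (RLE) scaling the run around Cdk4 in library 1835 held 9 genes, because Agap2 fell to 0.94.

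Other genes of the corresponding human amplicon were not all raised. Of 30 such genes, 20 were at least 1 log2 unit above the median in both libraries (11.1% of tested genes). Rap1b and Dyrk2, 2 genes, were at least 1 below it (17.8% of tested genes). All of the raised genes but Hmga2 and the gene Cpm lay within the span of the run described above. The genes that were not raised, Mdm2 and Frs2 included, all lay outside that span. Mdm2, the ubiquitin ligase of p53, stood at -0.50 and -0.80, with 37.7 and 30.6 CPM against 54.3. Frs2, an adaptor of fibroblast growth factor receptors, stood at -0.34 and -1.06. Hmga2, an architectural chromatin protein, stood at 5.80 and 5.54, with 29.4 and 24.5 CPM against a median of 0.406, but another unit reached 113 CPM.

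No other window of the genome was as raised in this unit. Of 1069 windows of 1 Mb with at least 5 genes, the window of Cdk4 ranked first in the unit of 408 and 1835, with a median of 4.33 over 29 genes. The next was on chromosome 5, at 2.93. The other units lay between -0.56 and 0.61 in the Cdk4 window. Among them 1 unit, p53R172H/fl 1383, had a window above 3.5 anywhere, on chromosome 11 at 4.22. The same window was the highest of p53R172H/fl unit 424/1241, at 2.12. Windows above 1 numbered 31 in unit 408/1835 and from 1 to 36 in the other units. The rest of chromosome 10 was low in unit 408/1835: 609 genes outside the run had a median of -0.51, against 0.03 over 12969 genes of the other autosomes. By bins of 10 Mb these values ran from -0.25 to -0.78, apart from -2.57 between 100 and 110 Mb. In the other units the same chromosome 10 median ran from -0.48 to 0.34.

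The shifts of the locus in other tumours were far smaller. Over the 34 genes of the run, the other units had median deviations between -0.52 (p53R172H/fl unit 621) and 0.60 (p53R172H/fl unit 344/383). In unit 431/1575, Cdk4 was 1.16 log2 units above the median, with 301 CPM in library 431 and 349 CPM in library 1575. Mettl1 (0.96), Tsfm (0.76) and Ctdsp2 (0.55) were above it too, whereas Avil was at -3.45 and Agap2 at -1.53. In that unit 4 of 10 members were thus at least 0.5 above the median (18.6% of all tested genes), and 4 of 10 were at least 0.5 below it (25.7%), namely Avil, Agap2, Cyp27b1 (-0.79) and March9 (-0.58). Unit 1833, also p53R245W/fl, had 4 of 10 as well (22.5% of tested genes), led by March9 at 1.17, but its Cdk4 stood at -0.19. Apart from 408/1835, no unit had more. In the downward direction p53R245W/fl unit 494/1831 had 7 of 10 members at least 0.5 below the median, where 32.4% of all tested genes were. Cdk4 was not among them, at 0.55, while its neighbour Mettl1 stood at -1.16 and Avil at -2.92.

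**Figure D3:**
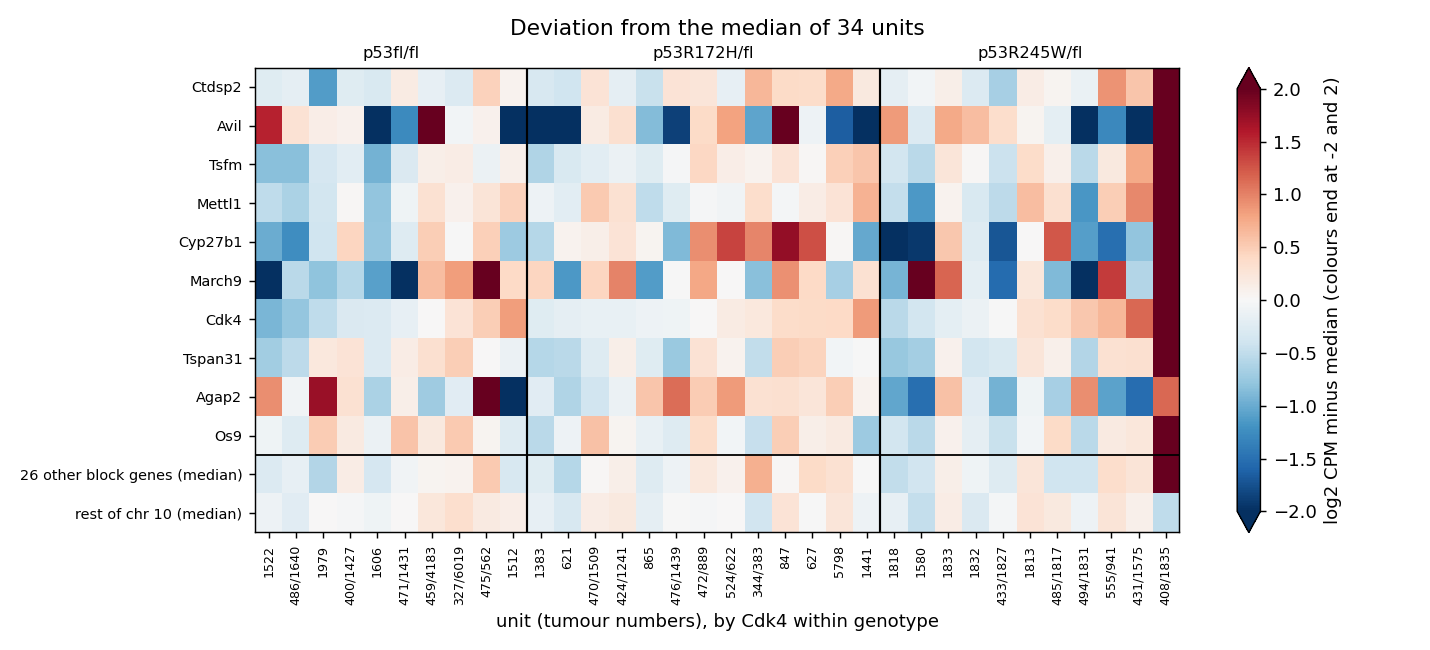
Log2 deviation from the median over the 34 units for each member (rows) in each unit (columns, by genotype and then by Cdk4), with the medians of the 26 other genes of the run and of the rest of chromosome 10 in the bottom rows. Blue lies below and red above the median, and colours end at -2 and 2. Unit 408/1835 is red for every member, unit 431/1575 is mildly red for Cdk4 (1.16) and Mettl1 (0.96), and Avil varies most among the other units.

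Unit 431/1575 differed from the median over a wide part of chromosome 10. Its bins of 10 Mb from 90 to 130 Mb had medians of 0.59, 1.21, 0.75 and 0.68, while its other bins lay between -0.17 and 0.37. Cdk4 lies between 120 and 130 Mb, but these bins leave out the 34 genes of the run. In this unit the run itself had a median of 0.30. Of its genes 35.3% were at least 0.5 above the median and 26.5% at least 0.5 below it. Over the 33 units without 408/1835, the deviation of Cdk4 and the chromosome 10 median outside the run had a Pearson r of 0.44 (Spearman rho 0.48), and r was 0.45 without the 2 units farthest from the median. This r has no p here, because the smaller shifts took part in the choice of the members.

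The members did not move as 1 group once 408/1835 was set aside. Over the 33 other units, the Pearson r with Cdk4 was 0.73 for Tsfm (rho 0.70), 0.62 for Mettl1 (rho 0.63), 0.58 for Ctdsp2 (rho 0.62) and 0.47 for Tspan31 (rho 0.44). Without units 431/1575 and 1522, which lie farthest from the median of Cdk4, these became 0.64, 0.53, 0.55 and 0.38. March9 (0.26), Cyp27b1 (0.23), Os9 (0.03) and Agap2 (-0.14) had weak relations. For Avil r was -0.45, and -0.31 without the same units. In the single libraries of sets A, B and C, r was 0.82, 0.46 and 0.70 for Tsfm, 0.82, 0.40 and 0.54 for Mettl1, 0.66, 0.44 and 0.59 for Ctdsp2, and 0.50, 0.47 and 0.52 for Tspan31. March9, Cyp27b1 and Os9 changed sign between sets. These 9 relations are descriptions, and the units share depth and library set.

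Genes with a pattern like that of Cdk4 were ranked by Pearson r over 14062 genes with a median of at least 1 CPM. Over all 34 units the 5 nearest were Naca (0.97), Tsfm (0.95), Dctn2 (0.94), Mettl1 (0.92) and Mars (0.91), all inside the raised run. Without 408/1835 the 5 nearest were Naca (0.84), Atp5b (0.81), Cand1 (0.80), Supv3l1 (0.78) and Prmt1 (0.77). The first 4 of these are on chromosome 10 and Prmt1 is on chromosome 7. Of the 100 nearest genes over these 33 units, 31 were on chromosome 10, which holds 4.57% of the ranked genes. Tsfm ranked 11, Mettl1 97, Ctdsp2 194 and Tspan31 617 in that order, while Os9 ranked 6319 and Avil 13824.

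The genotype groups were compared over the 34 units, with edgeR's quasi-likelihood test and Benjamini-Hochberg adjustment over 19726 genes. Unit 408/1835 belongs to p53R245W/fl and was used to choose the members. Comparisons that hold it are thus descriptions of that choice, and are given beside the fit without it. Smaller shifts in the other units also took part in the choice, so the members' p-values without 408/1835 are not free of it either. Nothing in the labels says whether units are separate animals, and the p-values measure the spread between these units. In bulk tumours, fewer cells of a type and less RNA per cell cannot be told apart.

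Between p53R172H/fl and p53fl/fl, neither of which holds unit 408/1835, 0 of 10 members passed an adjusted p of 0.05 in edgeR, where 0.259% of tested genes passed. Cdk4 differed by 0.18 log2 units (SE 0.57, adjusted p = 0.943). Because the fit shares its estimate of spread over all groups, that unit still enters this standard error: without it the difference was 0.20 (SE 0.20, edgeR adjusted p = 0.744), and again 0 of 10 members passed. At an unadjusted p of 0.05 only Agap2 passed with all units, with p = 0.036, Agap2 and Tsfm passed without 408/1835, and 0 members passed after adjustment in limma voom or in DESeq2. Within set A alone Cdk4 differed by 0.27, within set B by -0.15 and within set C, which holds 2 p53fl/fl libraries, by -0.012. Agap2 had a median of 3.38 CPM (1.81 to 5.99) in the p53R172H/fl units and of 2.81 CPM (0.441 to 41.8) in the p53fl/fl units. Without unit 475/562 its difference turned from lower to higher in p53R172H/fl, at 0.08.

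Between p53R245W/fl and p53fl/fl, 4 of 10 members were called higher and 0 lower with all units, against 9.04% of tested genes called in either direction and 4.68% called higher. Cdk4 was 2.50 log2 units higher (SE 0.63, adjusted p = 0.0117), Mettl1 2.14 (SE 0.60, adjusted p = 0.0219), Tsfm 1.90 (SE 0.51, adjusted p = 0.0174) and Ctdsp2 1.22 (SE 0.39, adjusted p = 0.0440). Between p53R245W/fl and p53R172H/fl, 6 of 10 were called higher, against 15.2% of tested genes called in either direction and 8.8% called higher. There Cdk4 was 2.31 higher (SE 0.57, adjusted p = 0.00726), and the other members called were March9, Mettl1, Tspan31, Tsfm and Os9.

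Without unit 408/1835, 0 members were higher in p53R245W/fl in either comparison, where 4.61% and 7.68% of tested genes were. Cdk4 then differed from p53fl/fl by 0.32 log2 units (SE 0.21, adjusted p = 0.363) and from p53R172H/fl by 0.12 (SE 0.20, adjusted p = 0.730). The median over the members moved from 1.69 to -0.16 against p53fl/fl and from 1.44 to -0.06 against p53R172H/fl, while the median over all tested genes was 0.02 and 0.03, and 0.06 and 0.04. Leaving out any other single unit kept Cdk4 between 2.43 and 2.64 against p53fl/fl and between 2.29 and 2.43 against p53R172H/fl, with its call in each case. Ctdsp2 lost its call against p53fl/fl on leaving out any of 8 units, 408/1835 included. Os9 lost its call against p53R172H/fl on leaving out any of 4 units. Calls against p53fl/fl were also gained, by Tspan31 on leaving out any of 7 p53R245W/fl units. Agap2 gained one on leaving out any of 5 units, 408/1835 included, March9 without unit 475/562 and Cyp27b1 without unit 1818.

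In each set that holds p53R245W/fl, the difference of Cdk4 was smaller without the raised library. The difference that remained was larger in set B than in set C. Within set B, the difference from p53fl/fl was 2.88 log2 units with library 408 and 0.52 without it, and the difference from p53R172H/fl was 3.02 (edgeR adjusted p = 0.0459) and 0.67 (adjusted p = 0.0774). Within set C, the differences were 2.38 and 2.39 with library 1835, and 0.057 and 0.033 without it. By the lane in the column names, all p53fl/fl and p53R172H/fl libraries of set C were in lane 3. Of its p53R245W/fl libraries only 1580 was, and the others were in lanes 4 and 5. Genotype and lane can thus hardly be told apart within set C. Set A holds no p53R245W/fl library. With limma voom on single libraries, library set as a covariate and matched libraries as a block, 0 members were called, where 0.0106%, 0.0159% and 1.63% of tested genes were for p53R172H/fl and p53R245W/fl against p53fl/fl and for p53R245W/fl against p53R172H/fl.

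**Figure D4:**
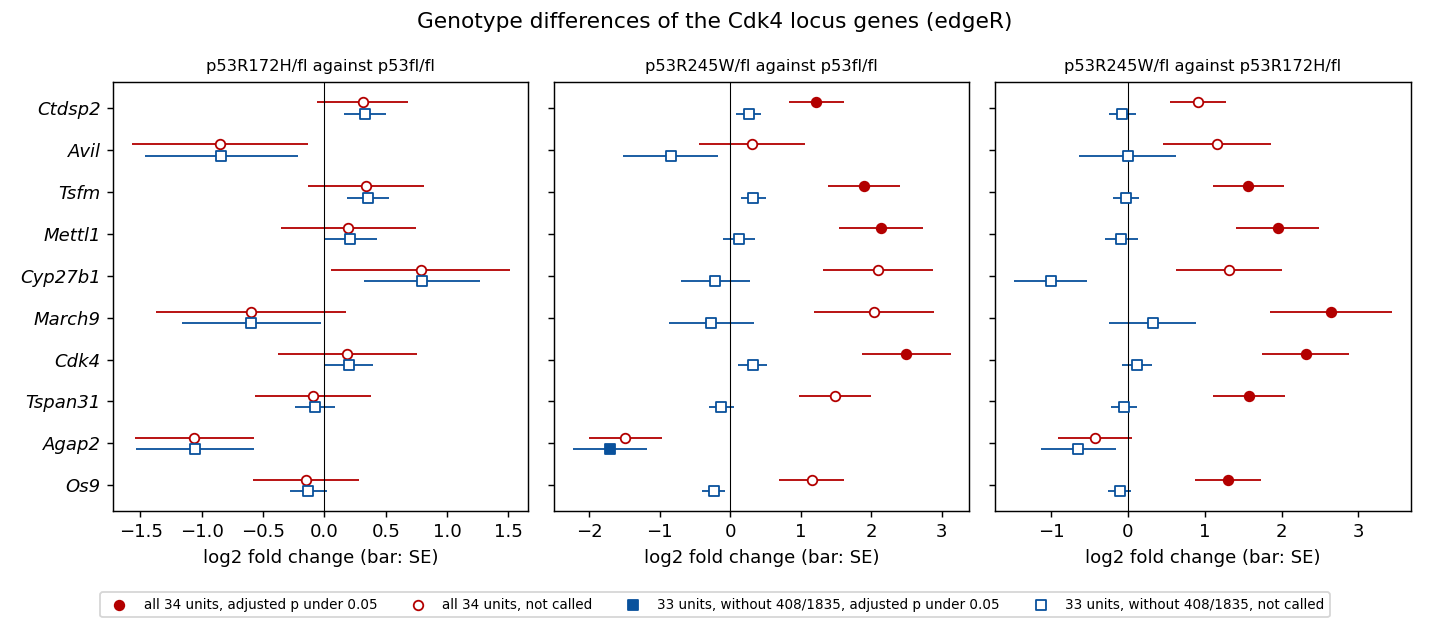
Log2 fold changes between genotype groups (horizontal axes, bars are standard errors) for each member, from the edgeR fit of all 34 units (circles) and from the fit of 33 without 408/1835 (squares), filled where the adjusted p was under 0.05. In both comparisons of p53R245W/fl, Cdk4 moves from 2.50 to 0.32 and from 2.31 to 0.12 when that unit is left out.

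Agap2 was the only member called in a genotype comparison without unit 408/1835, in units whose smaller shifts took part in the choice of the members. It was 1.70 log2 units lower in p53R245W/fl than in p53fl/fl, a log2 difference of -1.70 (SE 0.53, adjusted p = 0.0389), where 9.11% of tested genes were called and 4.5% were called lower. The p53R245W/fl units ranged from 0.937 to 5.25 CPM with a median of 1.57, and the p53fl/fl units from 0.441 to 41.8 CPM with a median of 2.81. The ranges overlapped, and the lowest value of all was in p53fl/fl unit 1512. A single unit carried much of this difference: with all other units kept, leaving out p53fl/fl unit 475/562 moved it from -1.48 to -0.35. Within set B the difference was -2.10 without library 408, and within set C, where p53fl/fl has 2 libraries, it had the opposite sign, at 0.34 without library 1835.

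The remaining members had overlapping ranges in all 3 genotypes once 408/1835 was set aside. Median levels in p53fl/fl, p53R172H/fl and p53R245W/fl units were 98.5, 135 and 114 CPM for Ctdsp2, 145, 128 and 124 CPM for Os9, and 83.5, 76.2 and 73.7 CPM for Tspan31. They were 12.1, 14.6 and 15 CPM for Tsfm, 13.2, 13.3 and 12.5 CPM for Mettl1, and 22.7, 11.7 and 20.5 CPM for Avil. The scarce members stood at 0.611, 1.13 and 0.691 CPM for March9 and at 0.376, 0.521 and 0.236 CPM for Cyp27b1. In the edgeR fit without that unit 0 of these 8 members were called, where 0.272%, 9.11% and 14.5% of tested genes were in the 3 comparisons (p53R172H/fl and p53R245W/fl against p53fl/fl, and p53R245W/fl against p53R172H/fl).

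Partners and inhibitors of CDK4 passed 1 log2 unit in unit 408/1835 in shares near those of all tested genes. Over all tested genes, 11.1% were at least 1 log2 unit above the median in both libraries and 17.8% at least 1 below it. Of 11 cyclins, kinases and inhibitors, 1 was at least 1 log2 unit above the median in both libraries and 2 below it. Ccnd1, the cyclin D1 gene, had 54.9 and 58.1 CPM against a median of 199 over the other units. Cdkn2b, an INK4 inhibitor, had 47.8 and 53.3 CPM against 13.8, and Cdkn1c, a Cip/Kip inhibitor, stood at -2.88 and -4.21 log2 units. Cdkn2a had 69.2 and 108 CPM against 63.3, and Ccnd2 279 and 211 CPM against 241. Of 25 E2F targets, 5 were at least 1 log2 unit above the median in both libraries and 0 below it, with a median deviation of 0.69 for the unit, and among them were Mcm5, Mcm6, Mcm7 and Cdc6, which license and start DNA replication. Of 13 Rb and E2F genes, E2f8 was up, at 2.08 and 1.24.

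Genes that act with other members gave mixed values. Of 8 tested genes of vitamin D signalling, 4 were at least 1 log2 unit below the median in both libraries (17.8% of tested genes) and 0 above it. Trpv6, of the same list, did not pass the filter on low counts. It stood at 6.13 and 5.50 log2 units, with 1.81 and 1.16 CPM against a median of 0. A link of these values to the raised Cyp27b1 was not tested. Vdr, the vitamin D receptor, had 17.7 and 10.1 CPM against 62.9. Bglap, the osteocalcin gene, which is also among the osteoblast markers below, had 0.0267 and 0.321 CPM against 22.6. Of 9 genes of transfer RNA methylation and mitochondrial translation around Mettl1 and Tsfm, 0 reached 1 log2 unit in both libraries in either direction.

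Across genotypes, with all units, 1 of 11 partners and inhibitors was called against p53fl/fl, where 9.04% of tested genes were, and 2 of 13 Rb and E2F genes and 1 of 25 E2F targets were called against p53R172H/fl, where 15.2% were. Cdkn2d, an INK4 inhibitor, was 0.73 log2 units higher in p53R245W/fl than in p53fl/fl (SE 0.18, edgeR adjusted p = 0.0104), and 0.78 without unit 408/1835 (adjusted p = 0.00808). Against p53R172H/fl, E2f3 differed by -0.89 (adjusted p = 0.0264), Cdc25a by -0.49 (adjusted p = 0.0461) and E2f5 by 0.56 (adjusted p = 0.0376, and 0.0501 without that unit). Of the 30 amplicon genes, 8 and 10 were higher in p53R245W/fl in the 2 comparisons with all units, where 4.68% and 8.8% of tested genes were, and 0 and 0 without 408/1835. Without that unit Mbd6, a methyl-binding domain protein, was lower than in p53R172H/fl by a log2 difference of -1.11 (edgeR adjusted p = 0.00709).

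Cell type markers also set unit 408/1835 apart, and their part in the members' values was not tested. Of 9 osteoblast markers 7 were at least 1 log2 unit below the median in both libraries. Col1a1 had 2301 and 1051 CPM against 36724, and Bglap2 was at 0 in library 408, but the osteoblast regulators Runx2 (286 and 127 against 179 CPM) and Sp7 (124 and 121 against 167 CPM) were present. The summed osteoblast level was 3630 and 2052 CPM, where the other units ranged from 2115 to 176308. Of 11 keratinocyte and epithelial markers 9 were at least 1 log2 unit above the median in both libraries, with sums of 383 and 344 CPM against 2.75 to 2545 in the other units. The summed neuron and Schwann cell markers stood at 1597 and 1395 CPM against at most 123, of which Ngfr made up 1250 and 1073 CPM, whereas Sox10 was at 0.507 and 0.160 CPM. All 7 muscle, 6 macrophage, 6 T and NK cell and 6 osteoclast markers were at least 1 log2 unit below the median in both libraries. Their sums were 21.3 and 22.3 CPM for muscle (79.1 to 36495 in the other units), 158 and 209 CPM for macrophages (361 to 5534), 163 and 235 CPM for osteoclasts (325 to 13382), and 1.44 and 1.57 CPM for T and NK cells (0.846 to 35.9). Ckm was at 0 in library 408 and Klrb1c in both. By the same limit of 1 log2 unit in both libraries, 3 of 5 cartilage markers were above the median and 1 below it, 1 of 5 adipocyte markers was above it, and 1 of 5 endothelial and 1 of 3 tuft cell markers were below it. With both libraries summed, 4 of 5 adipocyte markers were at least 1 above it.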

How the data were processed

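RNA came from flash-frozen primary osteosarcomas, isolated with the Zymo Direct-zol kit and made into stranded mRNA libraries read as pairs, per the labels. The authors deposited raw read counts per gene for 20730 genes in 52 libraries, without normalization. STAR and GRCm38 are named in the submitters' processing notes. Versions, the counting program, its strand setting and the annotation used by the authors were not stated in these sources. No gene total was below 260, so scarcer genes are not in the table. Total counts had a median of 51026968.5 per library. Symbols and coordinates come from GENCODE M21, which matched 20668 identifiers.

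The members, gene lists and rules were chosen with earlier results of these data known. Counts of matched libraries were summed into 34 units. edgeR 4.0.16 in R 4.3.3 fitted all units by genotype, with TMM scaling and the robust quasi-likelihood test. filterByExpr with a minimum count of 10 left 19726 genes, and adjusted p (Benjamini-Hochberg) under 0.05 was a call. Standard errors are the absolute log2 difference over the square root of F. Deviations are log2 CPM (prior count 2) minus the median over units. The fit was tested on simulated differences between p53R245W/fl and p53fl/fl units. It recovered 43% of 2-fold and 72.9% of 4-fold differences, with 3 false calls among 19548 genes. A gene that was not called can thus still differ between the groups.

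Named genes are all 10 members, Trp53, the 5 nearest genes of at least 1 CPM on each side, the edges of the raised run, Mdm2, Gli1, Ddit3, Hmga2 and Frs2. Of each list, up to 4 called genes, or else the 2 of highest level, are named, with the 5 genes most like Cdk4. Further list genes named for unit 408/1835, Stac3, Gpr182, Sdr9c7 and cell type markers were chosen after their values were seen. Alternatives were single libraries, library set as a covariate, limma 3.58.1 voom with duplicateCorrelation over matched libraries (estimated correlation 0.857), DESeq2 1.42.0, RLE factors, other filters, and subsets of libraries. Leaving out each unit, and fits of set A, of set C, and of sets B and C without 408 and 1835, were added after seeing the data.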

Additional observations from a re-analysis of the deposited data

Results flagged for a closer look

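Ctdsp2 in p53fl/fl unit 1979 stood at 52.3 CPM, the lowest of the 10 p53fl/fl units, where the next lowest was 92.3 CPM. On the log2 CPM scale the gap to the next unit was 0.517 of the range of the group, above Dixon's 95% limit for 10 values, 0.466. The limit was applied to each of the 10 members in the p53fl/fl group only. About 1 in 20 groups passes it by chance where genes are not chosen from the same values. Smaller shifts took part in the choice of the members, so this gap is given as a description.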

How the results depend on the processing

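With libraries 408 and 1835 summed, 10 of 10 members stayed at least 1 log2 unit above the median under RLE factors, total counts, a prior count of 0.5 and the other p53R245W/fl units as the reference. In library 1835 alone, Agap2 was at 0.94 with RLE factors, and the raised run then held 9 genes. The genotype differences rested on unit 408/1835. For p53R172H/fl against p53fl/fl, the log2 difference of Cdk4 was 0.18, and -0.15 in set B alone, -0.012 in set C alone and -0.15 in set B without 408. Leaving out each unit gave 0.106 to 0.323. The number of all genes called was 51, and 708 with single libraries unsummed, 910 with library set as a covariate, 2 with limma voom on single libraries, 286 with DESeq2, 135 without a filter, 1 in set B with or without 408, 95 in set A alone, and 0 in set C with or without 1835. Members that changed sign were Tspan31 (0.054) and Avil (0.14) in set A alone, and March9 with limma voom (0.31), with DESeq2 (0.47), without unit 475/562 (0.51) and in set C without 1835 (0.032). Agap2 ranged from -1.20 to 0.078 on leaving out each unit, and changed sign without unit 475/562. In set C alone Tsfm (-0.049), Cyp27b1 (-0.34) and Agap2 (0.75) did so, and without 1835 Tsfm (-0.016), Cyp27b1 (-0.31) and Agap2 (0.78).

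For p53R245W/fl against p53fl/fl, the log2 difference of Cdk4 was 2.50. It was 0.68 with limma voom on single libraries (adjusted p = 0.533), 0.30 with DESeq2, which replaces outlying counts (adjusted p = 0.384), 0.32 without 408/1835 (adjusted p = 0.363) and 0.35 without the 5 libraries of low Col1a1, 408 and 1835 among them (adjusted p = 0.387). It was 2.88 in set B (adjusted p = 0.262), 2.38 in set C (adjusted p = 0.998), 0.52 in set B without 408 (adjusted p = 0.342) and 0.057 in set C without 1835. Leaving out each other unit gave 2.43 to 2.64. The number of members called was 4, and 9 with single libraries unsummed, 7 with library set as a covariate, 1 with DESeq2, 1 (Agap2, lower) without 408/1835, and 0 with limma voom, without the libraries of low Col1a1, and in sets B and C with or without 408 and 1835. The number of all genes called was 1783, and 3365 with single libraries unsummed, 1005 with library set as a covariate, 3 with limma voom, 853 without the libraries of low Col1a1, 4 in set B with or without 408, and 0 in set C with or without 1835. Members that changed sign with DESeq2 were Tspan31 (-0.12), Cyp27b1 (-0.19) and Os9 (-0.23). Without 408/1835 they were Tspan31 (-0.12), March9 (-0.27), Avil (-0.84), Cyp27b1 (-0.21) and Os9 (-0.24). Without the libraries of low Col1a1 they were Tspan31 (-0.015), March9 (-0.62), Avil (-0.67), Cyp27b1 (-0.017) and Os9 (-0.14). In set B without 408 they were Tspan31 (-0.12), March9 (-1.86), Avil (-1.87) and Cyp27b1 (-0.96). In set C without 1835 they were Tspan31 (-0.46), March9 (-0.054), Mettl1 (-0.23), Tsfm (-0.15), Avil (-1.97), Cyp27b1 (-0.27), Os9 (-0.22) and Agap2 (0.34), and in set C with it Avil (-0.90) and Agap2 (0.48). Cyp27b1 did so with limma voom (-0.0068).

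For p53R245W/fl against p53R172H/fl, the log2 difference of Cdk4 was 2.31. It was 0.50 with limma voom (adjusted p = 0.490), 0.0902 with DESeq2 (adjusted p = 0.790), 0.12 without 408/1835 (adjusted p = 0.730), 0.14 without the libraries of low Col1a1 (adjusted p = 0.714), 2.39 in set C (adjusted p = 0.300), 0.67 in set B without 408 (adjusted p = 0.0774) and 0.033 in set C without 1835 (adjusted p = 0.962). Leaving out each other unit gave 2.29 to 2.43. The number of members called was 6, and 1 in set B alone, and 0 with limma voom, with DESeq2, without 408/1835, without the libraries of low Col1a1, in set B without 408 and in set C with or without 1835. The number of all genes called was 3000, and 5829 with single libraries unsummed, 307 with limma voom, 1280 without the libraries of low Col1a1, 615 in set B, 1499 in set B without 408, 3 in set C and 1 in set C without 1835. Members that changed sign with DESeq2 were Tspan31 (-0.048), Mettl1 (-0.10), Tsfm (-0.044), Ctdsp2 (-0.086), Cyp27b1 (-0.99) and Os9 (-0.10). Without 408/1835 they were Tspan31 (-0.046), Mettl1 (-0.084), Tsfm (-0.027), Avil (-0.00082), Ctdsp2 (-0.069), Cyp27b1 (-1.003) and Os9 (-0.10). In set C without 1835 they were Tspan31 (-0.11), March9 (-0.086), Mettl1 (-0.34), Tsfm (-0.14), Ctdsp2 (-0.15) and Os9 (-0.17). Without the libraries of low Col1a1 they were March9 (-0.029), Ctdsp2 (-0.021), Cyp27b1 (-0.81) and Os9 (-0.0079). In set B without 408 they were March9 (-0.71), Tsfm (-0.10), Avil (-0.74) and Cyp27b1 (-1.83). Cyp27b1 did so with limma voom (-0.73). Apart from the settings that leave out 408/1835, the cause of these changes was not tested. A minimum count of 50 leaves Cyp27b1 out of the tested genes and gives no value for it. No paired analysis was possible because tumour numbers are not shared between the genotypes.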
